A study of Mus musculus with 7 samples.

Results

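The autophagy machinery was examined as a set of 37 genes, chosen by symbol from the 55401 genes counted in ribosome-bound RNA of mouse Purkinje cells. The set spans the steps by which an autophagosome is built: the ULK1 kinase complex (5 genes), the class III PI3-kinase complexes (6 genes), ATG9 and the readers of the lipid PI3P (5 genes), the ATG8 and ATG12 conjugation enzymes (10 genes), the ATG8 family itself (5 genes), cargo receptors (5 genes) and 1 tethering factor. The mice carried *Rpl22* fl/+ and PCP2-Cre, which places an HA-tagged ribosomal protein, RPL22, in the cells where the *Pcp2* promoter is active, in the cerebellum chiefly Purkinje cells. They were either wild type (3 mice) or *nm3888*-/- (4 mice) at the *Rreb1* locus, all 3 weeks old, with 1 cerebellum per library. The *nm3888* mutation is a retroviral insertion in *Rreb1*, which encodes a zinc finger transcription factor. It arose on the NOD background and was later crossed to C57BL6/J. The Purkinje cells of homozygous mice are reported to degenerate from 4 weeks of age, which is later than the age sampled here.

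The libraries fall into a pair of series by their names. The first held 2 wild-type and 2 mutant mice, all female, and the second held 1 wild-type female and 2 mutant males, so that sex and genotype cannot be told apart in the second series. Libraries held between 18023017 and 107937386 counts in total (median 33849895), and the 37 genes took 0.260 to 0.323% of them. The level of *Rreb1* was 16.5 ± 1.81 CPM (n = 3, SD) for the wild types and 18.5 ± 5.46 CPM (n = 4, SD) for the mutants, where CPM is the count scaled to the library total. The paper reports loss of the predominant cerebellar transcript of *Rreb1* in the mutant, while other transcripts it detected were at levels like those of wild type. The counts here cover all transcripts of the gene together. They were not lower in the mutants (log2 fold change 0.20, 95% confidence interval −0.33 to 0.74), so they do not bear out the genotype labels, and every direction below rests on the labels alone.

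Autophagy delivers cytoplasmic material to the lysosome inside a double membrane. The ULK1 kinase complex starts the process, the class III PI3-kinase makes the lipid PI3P at the forming membrane, and a pair of ubiquitin-like systems then join ATG12 to ATG5 and attach the ATG8 proteins (LC3 and GABARAP) to lipid, where cargo receptors bind them. Purkinje cells are long-lived neurons that degenerate in mice when *Atg5* or *Atg7* is deleted in them.

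Upstream sequences are shown for *Gabarapl1*, the most abundant member and 1 of the 2 that were lower in the mutant, and for *Atg3* and *Atg5*, which hold the E-box letters CACGTG. This E-box is bound by TFEB and its relatives, which regulate lysosomal and autophagy genes, and by other basic helix-loop-helix factors. RefSeq windows (GRCm38.p6, from 250 bases before to 50 after a gene's start) were at hand for 29 of the 37 genes, as 33 windows. Only the 250 bases before the start were searched. The letters CACGTG, which read the same on both strands, were there in 3 of these windows (*Atg3*, *Atg5* and *Atg7*), and in 6.0% of all 32851 windows. Another E-box that was searched, CATCTG on either strand, was in 2 of the 33 windows (*Map1lc3b* and *Optn*) and in 14.4% of all windows. Each sequence runs 5′ to 3′ on the plus strand, ends before the start of the gene, and has CACGTG in capitals. The *Gabarapl1* stretch is chr6:129532942-129533159, the *Atg3* stretch chr16:45158579-45158784 and the *Atg5* stretch chr10:44268089-44268338.
Gabarapl1: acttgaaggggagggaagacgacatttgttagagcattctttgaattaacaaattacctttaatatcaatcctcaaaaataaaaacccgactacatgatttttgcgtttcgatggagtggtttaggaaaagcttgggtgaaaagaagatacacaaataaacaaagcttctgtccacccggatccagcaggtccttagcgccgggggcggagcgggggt
Atg3: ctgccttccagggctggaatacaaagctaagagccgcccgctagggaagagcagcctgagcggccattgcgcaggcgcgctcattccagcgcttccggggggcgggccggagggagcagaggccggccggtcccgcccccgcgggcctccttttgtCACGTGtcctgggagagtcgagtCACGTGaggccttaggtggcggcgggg
Atg5: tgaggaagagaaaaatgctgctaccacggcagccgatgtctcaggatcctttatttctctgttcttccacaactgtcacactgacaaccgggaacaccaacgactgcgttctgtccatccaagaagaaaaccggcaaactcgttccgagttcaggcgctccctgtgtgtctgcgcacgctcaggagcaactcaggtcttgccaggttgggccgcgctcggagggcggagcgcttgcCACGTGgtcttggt
The letters CACGTG occur 2 times in the *Atg3* stretch, once in the *Atg5* stretch and not in that of *Gabarapl1*. Neither of the members that carry the motif and are printed here was called different between the genotypes, and no window was at hand for the other lower member, *Atg12*.

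In the Purkinje cells labelled mutant 2 of the 37 genes were lower, *Atg12* and *Gabarapl1*, each by 0.47 on the log2 scale, and the rest of the machinery was not called. Of all 17621 genes tested, 5.95% were lower and 2.58% were higher at an adjusted p under 0.05 (edgeR's quasi-likelihood test with the library series as a term, Benjamini-Hochberg adjusted), so the share of lower members, 5.41%, was close to that of all genes. No member was called higher. At an unadjusted p under 0.05, 4 members were lower and 1 was higher, and the share of all genes at that threshold is not given here. DESeq2 called 2 members lower and 1 higher (*Wipi1*), beside 1257 lower and 791 higher of its 18207 genes tested. The estimates were small throughout, with a median size of 0.11 on the log2 scale for the 37 genes against 0.22 for all genes tested, beside a median standard error (SE) of 0.11 against 0.17. The 95% confidence intervals of all 37 log2 fold changes lay within a 2-fold change in either direction, and 32 lay within a 1.5-fold change.

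**Figure D1:**
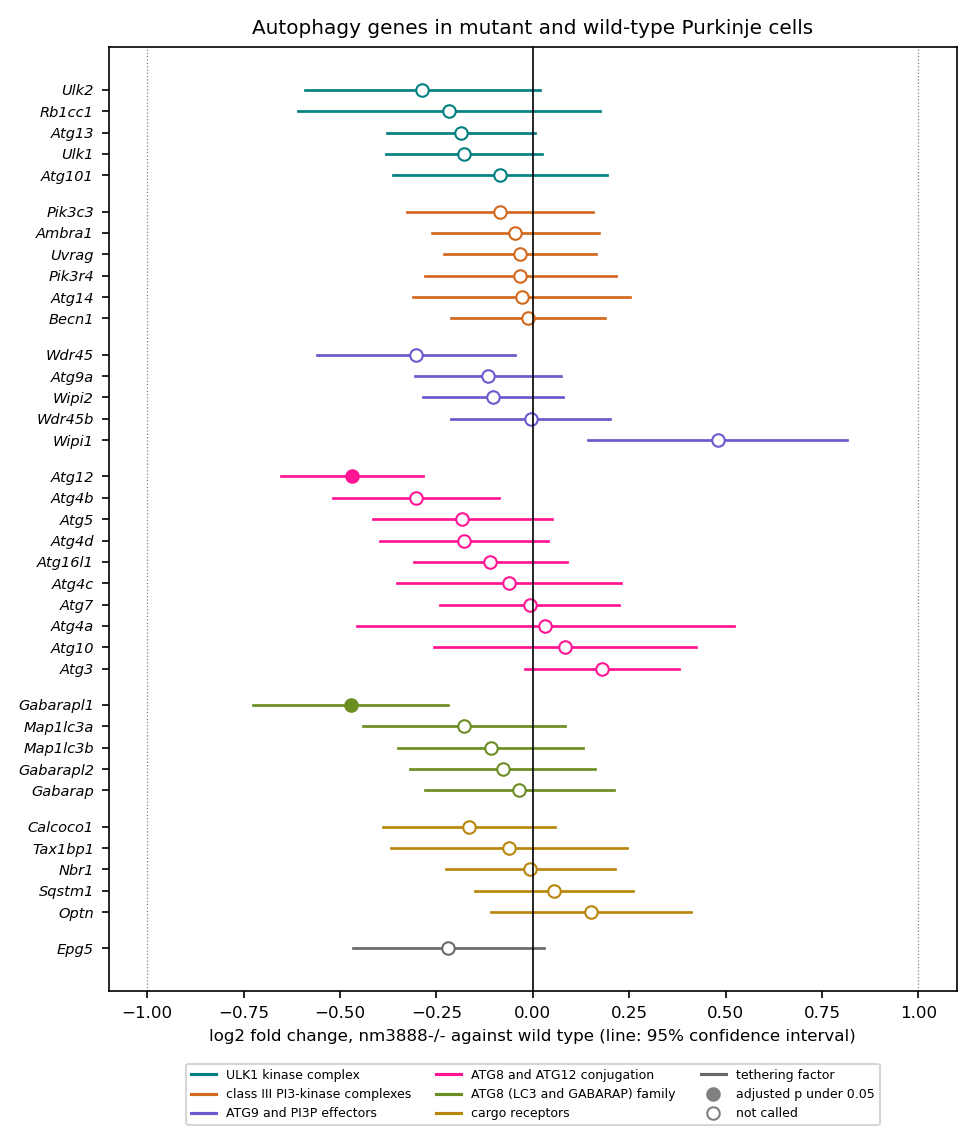
Log2 fold change of the 37 autophagy genes in *nm3888*-/- against wild-type Purkinje cells (x axis), 1 row per gene, grouped and coloured by role. Points are estimates from the edgeR fit, lines are 95% confidence intervals, and filled points mark an adjusted p under 0.05, which *Atg12* and *Gabarapl1* alone have.

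Of the 37 estimates 31 (83.8%) were below 0, compared with 46.6% of all genes tested, and the median was −0.08 against 0.03. This sign count was 24 to 36 over the other fits tried and 27 with DESeq2's scaling (relative log expression, RLE), since many of the estimates lie near 0. Each mutant mouse set against the wild types of its series gave a median over the members between −0.11 and −0.08. The summed CPM of the members was 2873 and 2864 in the wild types and 2611 and 2621 in the mutants of the first series. In the second series it was 3398 in the wild type and 3001 and 3180 in the mutants, so that each mutant lay below the wild types of its own series, while the ranges over both series overlap.

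*Gabarapl1*, a GABARAP-subfamily ATG8 protein with a prominent place in the brain, stands on mouse chromosome 6 (mm10, 129533160 to 129542346, plus strand). Its CPM was 464, 468 and 479 in wild-type mice 1 to 3, and 367, 325, 288 and 373 in mutants 1 to 4. Every mutant lay below every wild type, and the wild types of both series were close to each other. The log2 fold change was −0.47 (SE 0.11, adjusted p = 0.0342 by edgeR, 95% confidence interval −0.72 to −0.22). A fit with the replicate number as a block, where mutant 4 has no wild type beside it, gave −0.53 (adjusted p = 0.0628 by edgeR), which ends the call. Without wild type 1, 2 or 3 or mutant 2 the adjusted p rose to 0.0941, 0.118, 0.210 and 0.106 (edgeR), at estimates from −0.48 to −0.43.

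*Atg12* encodes the ubiquitin-like protein that is joined to ATG5. Its CPM was 101.0 and 97.9 in the wild types of the first series and 80.1 in the wild type of the second. The mutants had 70.5 and 71.8 in the first series and 60.3 and 57.1 in the second. Within each series the mutants lay below the wild types, and the groups did not overlap over all 7 mice. The log2 fold change was −0.47 (SE 0.08, adjusted p = 0.00893 by edgeR, 95% confidence interval −0.65 to −0.28). The blocked fit gave −0.46 (adjusted p = 0.0734 by edgeR), and without wild type 1, 2 or 3 the adjusted p was 0.0508, 0.0516 and 0.0663 (edgeR), so that this call too rests on every wild type.

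The other enzymes of conjugation were not called (9 of 10). *Atg5*, the partner of *Atg12*, had a CPM of 16.4, 16.8 and 17.2 in wild types 1 to 3, and of 14.6, 14.3, 16.3 and 14.5 in mutants 1 to 4. All mutants were below all wild types, by a small margin in mutant 3, and the log2 fold change was −0.18 (SE 0.10, adjusted p = 0.322 by edgeR). *Atg7*, the E1-like enzyme that activates both ATG12 and the ATG8 proteins, had a CPM of 17.0, 17.6 and 26.3 in wild types and of 15.98, 17.1, 29.2 and 26.0 in mutants. Its values followed the series and overlapped between the genotypes, and the log2 fold change was −0.01 (SE 0.10, adjusted p = 0.974 by edgeR). *Atg3*, the E2-like enzyme for the ATG8 proteins, had a log2 fold change of 0.18 and *Atg16l1*, the scaffold of the ATG12-ATG5 conjugate, one of −0.11.

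Of the ATG4 proteases, which trim the ATG8 proteins before their attachment to lipid, *Atg4b* had the lowest estimate. Its CPM was 100.1, 110.2 and 126.2 in wild types and 93.4, 85.1, 90.5 and 100.6 in mutants, where mutant 4 lies just inside the wild-type range. The log2 fold change of −0.30 (SE 0.09) missed the threshold (adjusted p = 0.0889 by edgeR). *Atg4d* had a log2 fold change of −0.18. *Atg4a* was the least abundant of the 37 genes, at 0.420 ± 0.0951 FPKM (CPM per kilobase of exon, SD, n = 3) in the wild types, so that its interval was wide, from −0.46 to 0.52 on the log2 scale.

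**Figure D2:**
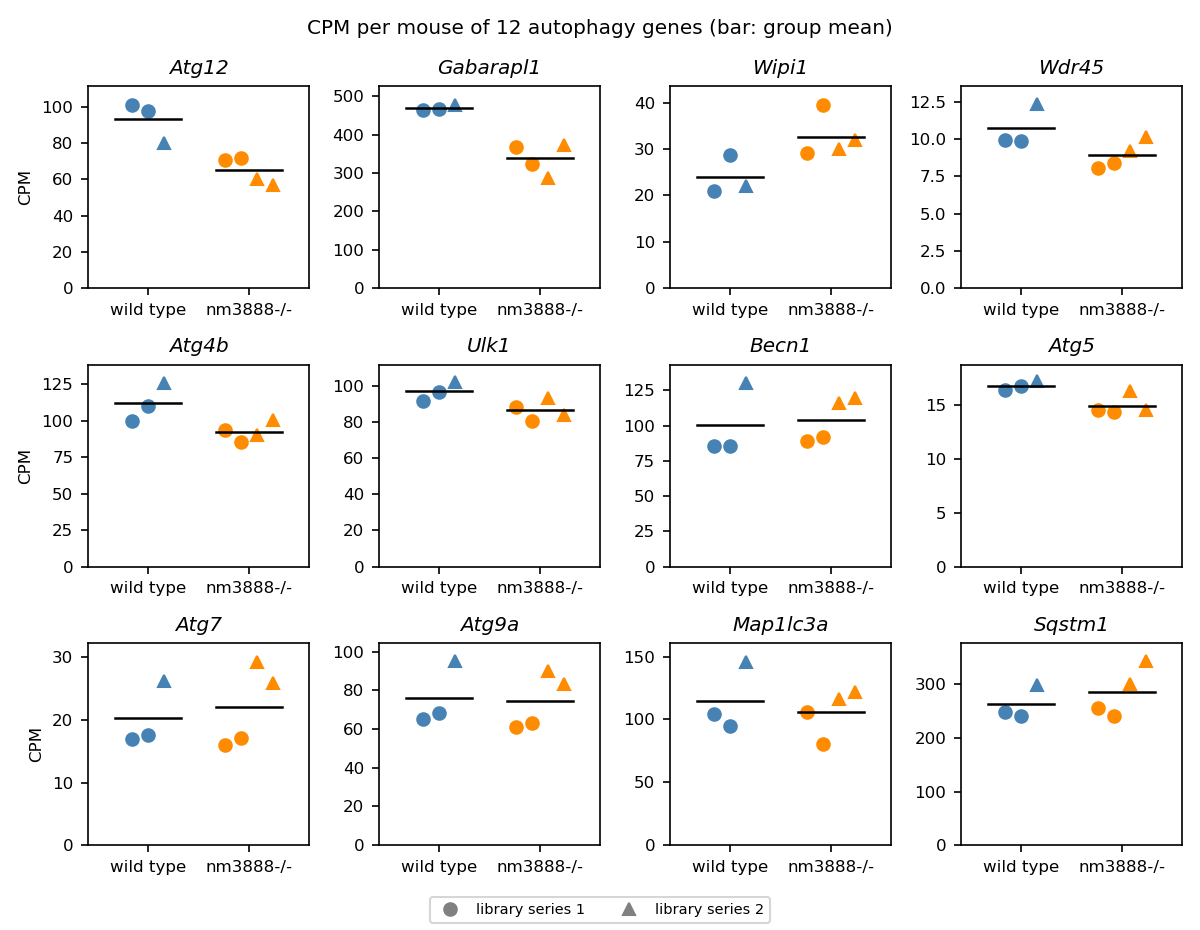
CPM (y axis, from 0) in each mouse for 12 autophagy genes, with wild-type mice in blue, *nm3888*-/- mice in orange, circles for the first and triangles for the second library series, and a bar at the group mean. The genotypes do not overlap for *Atg12*, *Gabarapl1*, *Wipi1* and *Atg5*. The second series lies above the first for *Becn1*, *Atg7*, *Atg9a*, *Map1lc3a* and *Sqstm1*.

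The ATG8 family held the most abundant members on the per-length scale. *Gabarapl1* stood at 234 ± 3.69 FPKM (SD) in the 3 wild types and at 168 ± 19.8 in the 4 mutants. *Map1lc3a* (97.3 ± 22.8 in wild type, SD, n = 3) and *Gabarapl2* (96.6 ± 24.8) followed, and those 2 did not differ beyond their spread. Below the receptor *Sqstm1* (78.2 ± 9.39) came *Gabarap* (54.2 ± 4.79), the receptor *Nbr1* (34.6 ± 1.55) and *Map1lc3b* (28.5 ± 1.26). This order depends on the annotation, since FPKM divides by all annotated exon bases, 7517 for *Map1lc3b* and 1181 for *Map1lc3a*. In CPM *Map1lc3b* was the higher of these genes, at 214 ± 9.46 against 115 ± 26.9 (SD) in the 3 wild types. *Gabarapl1* was the highest in CPM as well, at 470 ± 7.43. *Gabarapl1* thus remained the highest of the 37 genes in both genotypes.

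Of the summed FPKM of the 5 ATG8 genes, *Gabarapl1* took 47.8, 49.0 and 41.5% in wild types 1 to 3 and 41.8, 41.4, 34.9 and 37.2% in mutants 1 to 4. The mutants were lower within each series, and over all mice the ranges touched, mutant 1 lying just above wild type 3. The share of *Gabarapl2*, the GATE-16 protein, was 18.7 ± 2.71% (SD, 3 mice) in the wild types and 22.2 ± 3.10% (SD, 4 mice) in the mutants, and that of *Gabarap* was 10.7 ± 0.463% against 12.3 ± 0.943%. A share in a closed sum shows unequal change, and those of the other genes rise when that of *Gabarapl1* falls. The size of each share also depends on the annotated exon lengths.

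The LC3 genes were not called. *Map1lc3a* had a CPM of 104.4, 94.7 and 145.5 in wild types and 105.6, 80.1, 116.6 and 121.5 in mutants. The values followed the series and overlapped between the genotypes, and the log2 fold change was −0.18 (SE 0.12, adjusted p = 0.395 by edgeR). *Map1lc3b*, whose protein is the LC3 used to mark autophagosomes, had a CPM of 206, 224 and 212 in wild types and 214, 201, 165 and 206 in mutants. These overlapped as well (log2 fold change −0.11, SE 0.11, adjusted p = 0.578 by edgeR, 95% confidence interval −0.35 to 0.13).

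**Figure D3:**
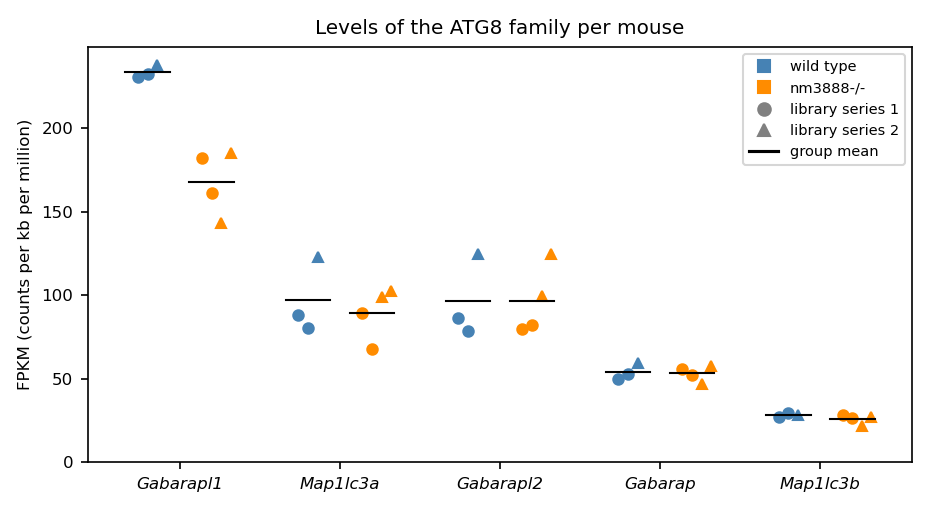
FPKM (y axis, from 0) of the 5 ATG8 genes in each mouse, wild type in blue and *nm3888*-/- in orange, with circles for the first and triangles for the second library series and a line at the group mean. *Gabarapl1* falls from a mean of 234 to 168, while the 2 genotypes overlap for each of the other 4 genes.

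All 5 genes of the ULK1 kinase complex had estimates below 0, from −0.29 to −0.08, and none was called by edgeR or DESeq2 or reached an unadjusted p under 0.05. *Ulk1*, the kinase itself, had a CPM of 91.9, 96.8 and 102.4 in wild types and 88.5, 80.4, 93.3 and 84.0 in mutants. Mutant 3 lay inside the wild-type range, and the log2 fold change was −0.18 (SE 0.09, adjusted p = 0.266 by edgeR). *Atg13*, an adaptor of the complex, had 83.8, 83.7 and 100.9 in wild types and 79.2, 75.0, 82.9 and 82.9 in mutants, which did not overlap. Its log2 fold change was −0.19 (SE 0.08, adjusted p = 0.225 by edgeR). *Ulk2* had a log2 fold change of −0.29 and *Rb1cc1*, the scaffold also called FIP200, one of −0.22, each with overlapping groups.

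The class III PI3-kinase complexes had the narrowest range of estimates, close to 0. All 6 genes lay between −0.08 and −0.01, none was called by edgeR or DESeq2, and none reached an unadjusted p under 0.05. *Becn1*, which encodes Beclin 1, had a CPM of 85.8, 85.3 and 130.3 in wild types and 88.7, 92.0, 116.1 and 119.9 in mutants. The mutants of the first series were above their wild types and those of the second series below theirs, and the log2 fold change was −0.01 (SE 0.09, adjusted p = 0.956 by edgeR, 95% confidence interval −0.21 to 0.19).

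Among ATG9 and the PI3P effectors, *Wipi1* had the highest estimate of the 37 genes. *Wipi1* encodes a PI3P-binding protein recruited to the forming autophagosome, and stands on chromosome 11 (mm10, 109573331 to 109611967, minus strand). Its CPM was 20.9, 28.7 and 22.0 in wild types and 29.1, 39.4, 29.9 and 32.0 in mutants, which did not overlap, mutant 1 lying just above wild type 2. The log2 fold change was 0.48 (SE 0.15, adjusted p = 0.0854 by edgeR, 95% confidence interval 0.14 to 0.82). DESeq2 called it (adjusted p = 0.0413), as did edgeR with no filter on low counts (adjusted p = 0.0483), but the fit reported did not.

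*Wipi2*, which recruits ATG16L1, had a log2 fold change of −0.10. *Wdr45*, which encodes WIPI4, had a CPM of 9.96, 9.89 and 12.4 in wild types and 8.07, 8.43, 9.20 and 10.1 in mutants. Mutants were lower within each series, at an estimate of −0.30 on the log2 scale (SE 0.11, adjusted p = 0.143 by edgeR), and 24.7% of the exon bases of *Wdr45* are shared with a gene model on the same strand, so its count is uncertain. *Atg9a*, the transmembrane protein that supplies lipid, had 65.4, 68.0 and 94.9 in wild types and 61.0, 62.9, 90.2 and 83.2 in mutants. Its values followed the series, at an estimate of −0.12 on the log2 scale (SE 0.08, adjusted p = 0.443 by edgeR), and 31.8% of its exon bases are shared in the same way.

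None of the 5 cargo receptors was called by edgeR or DESeq2, and none reached an unadjusted p under 0.05. *Sqstm1*, which encodes the ubiquitin-binding receptor p62, had a CPM of 248, 241 and 299 in wild types and 255, 241, 300 and 343 in mutants. These values followed the series, and the log2 fold change was 0.06 (SE 0.09, adjusted p = 0.754 by edgeR), with a 95% confidence interval from −0.15 to 0.26. *Optn* (optineurin) had a log2 fold change of 0.15 and *Calcoco1*, a receptor for autophagy of the endoplasmic reticulum, one of −0.17. The tethering factor *Epg5*, which links autophagosomes to lysosomes, had a CPM of 24.3 to 28.1 in wild types and 21.3 to 24.6 in mutants. Its log2 fold change was −0.22 (SE 0.11, adjusted p = 0.267 by edgeR).

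Beside *Becn1*, *Atg7* and *Sqstm1*, the 14 members with an estimate smaller than its SE were *Atg101*, *Pik3c3*, *Pik3r4*, *Atg14*, *Uvrag*, *Ambra1*, *Wdr45b*, *Atg4a*, *Atg4c*, *Atg10*, *Gabarap*, *Gabarapl2*, *Nbr1* and *Tax1bp1*. Their log2 fold changes ran from −0.08 to 0.08, with a lowest adjusted p of 0.674 (edgeR) and 95% confidence intervals between −0.46 and 0.52.

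Without overlap between the genotypes, 4 of the 37 genes were lower in the mutant (*Atg12*, *Gabarapl1*, *Atg13* and *Atg5*, 10.8%) and 1 was higher (*Wipi1*). Of all genes tested, 8.92% were lower and 5.16% were higher without overlap. Ratios of related members within a library need no scaling between libraries, and 7 pairs were compared. The exact permutation test over the 7 mice takes no account of the series, and its smallest two-sided p is 0.0571, so that it could not pass 0.05 for any pair. Differences within each series are therefore given too, with no test. The log2 ratio of *Gabarapl1* to *Gabarap* counts was 2.24 ± 0.10 (SD) in the 3 wild types and 1.78 ± 0.04 in the 4 mutants, a difference of −0.46 with no overlap (exact permutation p = 0.0571, adjusted p = 0.133 over 7 pairs). It was −0.50 in the first and −0.35 in the second series.

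The log2 ratio of *Wipi1* to *Wipi2* was −1.58 ± 0.30 in wild types and −1.04 ± 0.23 in mutants, and that of *Wdr45* to *Wdr45b* was −1.51 ± 0.03 and −1.81 ± 0.11 (SD, n = 3 and 4), each without overlap and with the same exact permutation p of 0.0571 (adjusted p = 0.133). Within the first and the second series the difference was 0.56 and 0.61 for *Wipi1* to *Wipi2*, and −0.31 and −0.28 for *Wdr45* to *Wdr45b*. For *Ulk1* to *Ulk2*, *Map1lc3a* to *Map1lc3b*, *Gabarapl2* to *Gabarap* and *Atg4b* to *Atg4d* the differences over all mice ran from −0.19 to 0.09 (exact permutation p from 0.286 to 0.971), and those within a series from −0.15 to 0.16.

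The genotype difference could be taken within each series. Of the 37 genes, 21 were lower in the mutants of both series and 5 were higher in both, a share of the same sign of 70.3% beside 65.1% of all genes tested. *Atg12* had log2 differences of −0.48 in the first and −0.45 in the second series, *Gabarapl1* had −0.43 and −0.55, and *Wipi1* had 0.47 and 0.49. *Rb1cc1* had −0.45 in the first and 0.07 in the second series. A test of the interaction of genotype and series called none of the 37 genes (edgeR, lowest adjusted p = 0.923, none at an unadjusted p under 0.05, and none by DESeq2), and 0.0795% of all genes tested. The second series holds 1 wild-type mouse, so this test has little precision.

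**Figure D4:**
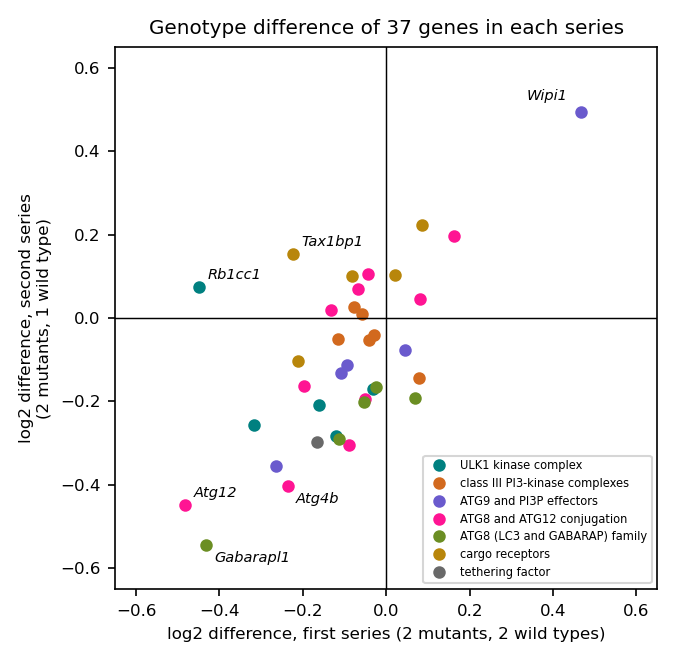
Log2 difference between mutant and wild-type mice in the first series (x axis, 2 mutants and 2 wild types) and in the second (y axis, 2 mutants and 1 wild type), 1 point per autophagy gene, coloured by role. *Atg12* and *Gabarapl1* lie at the lower left and *Wipi1* at the upper right.

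Between the series themselves the members differed more than between the genotypes. In the second series 15 of the 37 genes were higher (40.5%) and 1 was lower (*Atg12*, log2 difference −0.29), where 22.9% of all genes tested were higher and 22.9% lower (edgeR, adjusted p under 0.05). The largest differences were those of *Atg3* (1.46) and *Pik3c3* (1.40) on the log2 scale. *Atg3* had a CPM of 20.4 to 24.3 in the 4 mice of the first series and of 56.5 to 65.5 in the 3 of the second. Per the file headers the alignments of the series came from different aligners, whose part in this difference was not tested.

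Around the machinery, 63 further genes of the pathway were counted, all of which were tested. Of these 1 was higher (1.59%) and 3 were lower (4.76%), beside 2.58% higher and 5.95% lower of all genes tested. The called genes stood in the lists of nutrient-sensing kinases (2 of 15 lower), fusion of autophagosomes with lysosomes (1 of 12 higher) and other selective receptors (1 of 15 lower). Of 12 other core autophagy genes edgeR and DESeq2 called 0, with 2 lower at an unadjusted p under 0.05, and of 9 transcription regulators of autophagy they called 0, with 2 higher at an unadjusted p under 0.05. *Vamp8*, a SNARE protein that takes part in the fusion of autophagosomes with lysosomes, rose from a CPM of 0.988, 0.791 and 1.11 in wild types to 5.82, 4.71, 6.06 and 6.93 in mutants. The genotypes were far apart at these low levels (25, 20 and 114 counts in the wild types), and the log2 fold change was 2.55 (SE 0.19, adjusted p = 0.000118 by edgeR).

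*Prkag2*, a regulatory subunit of the energy sensor AMPK, fell from a CPM of 41.8, 40.5 and 57.5 in wild types to 21.2, 25.3, 31.6 and 31.9 in mutants (log2 fold change −0.84, SE 0.10, adjusted p = 0.00117 by edgeR). Another AMPK subunit, *Prkab2*, had a log2 fold change of −0.42 (SE 0.11) at the edge of the threshold (adjusted p = 0.0499 by edgeR), and its groups overlapped. The blocked fit gave *Prkab2* an adjusted p of 0.113, and leaving out any 1 library ended its call, at adjusted p from 0.0582 to 0.157 (edgeR). *Retreg1*, the receptor FAM134B for autophagy of the endoplasmic reticulum, fell from 83.1, 80.9 and 60.3 to 44.0, 55.6, 44.5 and 37.7 CPM, without overlap (log2 fold change −0.65, SE 0.11, adjusted p = 0.00944 by edgeR).

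Markers of Purkinje cells summed to 46370 to 52000 CPM in wild-type and 41330 to 56400 in mutant mice (12 genes), of which *Slc32a1*, the vesicular GABA transporter, was lower (log2 fold change −1.25, adjusted p = 0.00014 by edgeR). RNA of other cells was also present. Of 62 markers of other cells 60 were tested, with a median log2 fold change of 0.50, of which 3 were higher (*Gfap*, *Cnp* and *Cldn11*) and 2 were lower. Of the lower ones *Hopx*, a marker of Bergmann glia and astrocytes, is reported here (log2 fold change −0.82, adjusted p = 0.0207 by edgeR). None of the markers was at 0 in every library. In CPM, the granule cell list summed to 524 to 645 in wild-type and 713 to 1317 in mutant mice, the blood list to 87.2 to 112.5 against 106.2 to 313, and the oligodendrocyte list to 504 to 733 against 685 to 1229. The Bergmann glial and astrocytic list summed to 8145 to 13320 against 9700 to 14170, of which 93.7 to 96.5% was *Aldoc*, a zebrin gene that Purkinje cells also express. Its other 9 markers summed to 434 to 513 against 391 to 612, which overlap. That sum includes *Hopx*, at 158 to 245 CPM in wild types and 96.1 to 132 in mutants, whereas the median log2 fold change of the list was 0.52. The interneuron list, summed over 7 of its 8 markers, came to 85.0 to 194 against 88.1 to 141, the microglial list to 7.87 to 17.3 against 8.88 to 22.5, and the endothelial list to 20.5 to 32.9 against 23.9 to 41.0.

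The granule cell list was higher in every mutant than in every wild type. It and the blood list were highest in mutant 3, and the oligodendrocyte list was highest in mutant 4. The part of other cells in the differences of the members was not tested. In such pulldowns fewer Purkinje cells and less RNA per cell cannot be told apart, and the values are relative to the RNA recovered.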

How the data were processed

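RNA bound to HA-tagged ribosomes was sequenced from single mice, 3 of them wild type and 4 *nm3888*-/-. The deposited values are raw counts of read pairs per gene, with no normalization. Per the methods and the file headers, the authors removed duplicates and trimmed reads with fastp, aligned them to mm10 and counted them with featureCounts 2.0.1 (both ends mapped, reverse-stranded) on GENCODE M25. The methods name Bowtie2, whereas the headers point to Bowtie2 in the first and STAR in the second library series. Mitochondrial counts were 0 in the second series. Reads that fit near-identical copies of a gene can be lost or split, which can differ between aligners, so levels of gene families such as ATG8 are uncertain. Symbols were matched for 55141 of 55401 genes.

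Genes were compared with edgeR 4.0.16 (R 4.3.3, limma 3.58.1), by the quasi-likelihood test after TMM scaling with the library series as a term. The methods name batch as a covariate and do not assign the libraries, so the series stood in for it. The 17621 genes that passed filterByExpr were tested, including all 37 members, and an adjusted p under 0.05 (Benjamini-Hochberg over all genes tested) was called. CPM and FPKM were computed from the counts with TMM-scaled totals, FPKM with the exon length in the files. The SE comes from the fold change and its F statistic. Totals differ 5.99-fold, and counts were also thinned to 18023017 per library. The test was checked on simulated data, where small shifts were mostly missed. With 50 genes shifted at each size, it picked up 9 at 1.5-fold, 27 at 2-fold, 46 at 4-fold and 48 at 8-fold. False ones made up 12 of the 142 calls there. The shifted genes were drawn at random from all genes tested, and no other gene differed between the simulated genotypes. In the data 455 genes were higher and 1049 lower, so the shares picked up need not hold for the 37 members. A member that was not called may still differ by a small amount.

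Same-numbered libraries of the genotypes deviated together from their group means (correlations 0.914, 0.946 and 0.960), as did differently numbered libraries of a series (0.926 for wild type 1 and mutant 2, and 0.929 for wild type 2 and mutant 1). Within the first series, the difference of wild types 1 and 2 correlated at 0.0352 with that of mutants 1 and 2. Blocked values are therefore given beside the calls they change. The alternatives were DESeq2 1.42.0, RLE scaling, no filter, no series term, sex, the block, mutant 2 in the second series, thinning, each series alone and leaving out each library.

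The members and gene lists were chosen with earlier results of these data known. Full values are given for each called member and for *Ulk1*, *Becn1*, *Atg5*, *Atg7*, *Atg9a*, *Map1lc3a*, *Map1lc3b*, *Gabarapl1* and *Sqstm1*, and from the other pathway lists for called genes, up to 3 per direction. The values of *Wipi1*, *Wdr45*, *Atg4b*, *Atg13* and *Epg5* by mouse were added after they had been seen. Promoter sequences and starts are from RefSeq (GRCm38.p6). No protein sequences were used here. A marker gene is not reported here.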

Additional observations from a re-analysis of the deposited data

Results flagged for a closer look

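*Atg5* in mutant 3 stood at 16.3 CPM, apart from the other 3 mutants, which lay between 14.3 and 14.6. Its gap to the nearest of them was 0.882 of the range of the 4 mutants, above Dixon's critical value for 4 samples. The 4 mutant values of each of the 37 genes were examined in this way, and chance flags about 1 in 20 groups. Leaving out mutant 3 did not bring *Atg5* past the threshold.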

How the results depend on the processing

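*Atg12* and *Gabarapl1* were lower in sign under every alternative. Both calls were kept with RLE scaling, DESeq2, no filter, thinned counts and without mutant 1, 3 or 4. The number of lower members was 0 with no series term, with sex in its place, with the replicate block, with mutant 2 in the second series and in either series alone, and 0 to 2 when 1 library was left out. The smaller number of mice bears on the fits of 1 series and on those without a library. With no series term or with sex, which sets wild type 3 with the first series, the difference between series is not modelled in full. That difference was called in 22.9% of all genes tested as higher and 22.9% as lower. In log2 CPM mutant 2 correlated at 0.978 with wild type 1 and at 0.722 with mutant 3 of the second series, to which the fit above moved it. Otherwise the cause of the lost calls was not tested. The replicate block changed no call of other named members, and among the other pathway genes it ended that of *Prkab2*. The number of higher members was 1 with DESeq2 and with no filter (*Wipi1*). Over all genes, 455 were higher and 1049 lower as reported. The higher genes were 791 with DESeq2, 731 with no filter, 58 with no series term, 17 with sex, 241 with the replicate block, 19 with mutant 2 in the second series, 193 in the first series alone, and 173 to 432 when 1 library was left out. The lower genes were 251 with no series term, 85 with sex, 571 with the block, 86 with mutant 2 in the second series, 490 and 517 in the first and the second series alone, and 423 to 999 without 1 library. Other pathway genes higher in the mutant were 2 with DESeq2, no filter and the second series alone, and those lower were 0 with no series term, sex and mutant 2 in the second series, and 1 in the second series alone. Markers of other cells higher in the mutant were 9 with DESeq2, 10 with no filter, 0 with no series term, sex, mutant 2 in the second series and the first series alone, 24 in the second series alone, and 0 to 5 without 1 library. The median log2 fold change of the members was −0.064 with RLE, −0.072 with DESeq2, −0.035 with no series term, −0.20 with sex, −0.12 with mutant 2 in the second series, −0.11 with thinned counts and in the second series alone, and −0.10 to −0.076 without 1 library. *Rreb1* ran from −0.034 without mutant 3 to 0.356 without mutant 4. Estimates near 0 changed sign without a call. *Becn1* was 0.0087 with RLE, 0.00025 with DESeq2, 0.052 with no series term, 0.079 in the first series alone and −0.047 to 0.079 without 1 library. *Atg7* was 0.011 with RLE, 0.0061 with DESeq2, 0.12 with no series term, 0.00998 with the block, 0.080 in the second series alone and −0.066 to 0.028 without 1 library. *Rb1cc1* was 0.086 in the second series alone, *Atg3* −0.49 with sex and −0.026 with mutant 2 in the second series, and *Sqstm1* and *Optn* were −0.081 and −0.087 with sex. The test of the interaction could not be fitted without wild type 3, and it called 0 members in the other fits that allow it. *Vamp8* had 20 to 114 counts per wild-type library, which limits the precision of its fold. The exact permutation test of the ratios of related genes could give no p below 0.0571.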
